A study of Mus musculus with 6 samples.

Results

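Aminoacyl-tRNA synthetases were examined as a family of 35 genes, 19 for cytosolic and 16 for mitochondrial enzymes, out of 55416 genes in the RNA-Seq table. The genes were taken by name from a fixed list through their Ensembl identifiers, all 35 were found, and all passed the filter of a mean of at least 10 normalized counts that left 18459 genes to test. Synthetase genes that were not on the list were not analysed here. Organoids grown from small intestinal crypts of 3 C57BL/6 mice of WT genotype were treated for 5 days with LDL or with PBS, the control, and each mouse gave 1 library to each treatment, so that 3 LDL-treated and 3 PBS-treated libraries were compared. All groups shared the strain, the genotype and the culture, and differed in the treatment. The age of the mice is not in the labels.

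Each synthetase joins an amino acid to its matching tRNA, which carries it to the ribosome. The cytosolic enzymes supply translation of nuclear genes, and a separate set of nuclear-encoded enzymes is imported into mitochondria to supply translation of the mitochondrial genome. The enzymes belong to class I or class II by the fold of the catalytic domain. Several cytosolic enzymes form the multisynthetase complex together with scaffold proteins, and many cytosolic synthetase genes are known targets of ATF4, a transcription factor that is translated when amino acids are scarce or the endoplasmic reticulum is stressed. Gars1 and Kars1 encode both the cytosolic and the mitochondrial form of their enzymes and were counted as cytosolic.

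Between 22061545 and 31073360 reads were counted on genes per library. The LDL-treated library of mouse 1 and the PBS-treated library of mouse 2 stood apart, with 7.62% and 3.02% of their reads on Rn18s-rs5, an 18S ribosomal RNA gene, against 0.0826% to 0.225% in the other 4 libraries. For some calls, log2 fold changes and medians, values without these libraries are also given. The RPKM levels, the marker sums and the counts by mouse include them. The 8 epithelial markers summed to 101702 to 133863 normalized counts in LDL-treated and 90002 to 94413 in PBS-treated organoids, with Krt8, Krt18 and Krt19 higher past the test. The 8 stromal markers summed to 87.3 to 151 with LDL and 137 to 167 with PBS (Vim lower past the test), the 6 immune markers to 145 to 229 and the 3 endothelial markers to at most 25.6 over all libraries, and no listed marker was at 0 in all libraries. Goblet cell markers summed to 26119 to 31653 in LDL-treated and 43791 to 49552 in PBS-treated organoids, with 3 of 5 lower and 1 (Clca1) higher past the test. The Paneth cell markers summed to 8116 to 10370 and 10420 to 17594, with 1 of 4 lower (Itln1) and 1 higher (Mmp7). The sums of the other lineages overlapped between treatments, with 1 of 6 enterocyte markers lower and 3 higher, 2 of 5 stem cell markers lower and 1 higher, and 0 of 5 enteroendocrine markers past the test. The part of these markers in the synthetase results was not tested. In these bulk samples, fewer cells of a type and less RNA per cell cannot be told apart.

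The levels of the synthetase genes were first compared per length, as RPKM, reads scaled by the kilobases of annotated exon and by the library's reads on genes. The exon length is that of all annotated transcripts of a gene joined, so genes with long rarely used exons read low. Cytosolic synthetases were the more abundant group, with a median of 20.7 RPKM over the 19 PBS means, against 3.56 for the 15 mitochondrial members other than Lars2. In PBS-treated organoids, Nars1, for asparagine, was highest at 63.6 ± 2.32 RPKM (SD, n = 3), followed by Iars1, for isoleucine, at 41.2 ± 4.59, and the lowest cytosolic member was Cars1, for cysteine, at 6.00 ± 0.817. Nars1 in PBS ranged from 62.0 to 66.3, with no overlap with Iars1 at 38.1 to 46.4, whereas Iars1 overlapped with Vars1, for valine, at 29.7 to 41.2. Among mitochondrial members other than Lars2, Iars2 was highest at 12.5 ± 0.560 RPKM and Wars2, for tryptophan, lowest at 1.24 ± 0.0425. For each of 15 mitochondrial members, the cytosolic gene for the same amino acid was higher in all 6 libraries (the lower subunit where there were several). The ratio of the PBS means ran from 1.91 for methionine (Mars1 over Mars2) to 38.3 for asparagine (Nars1 over Nars2), with a median of 5.14.

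**Figure D1:**
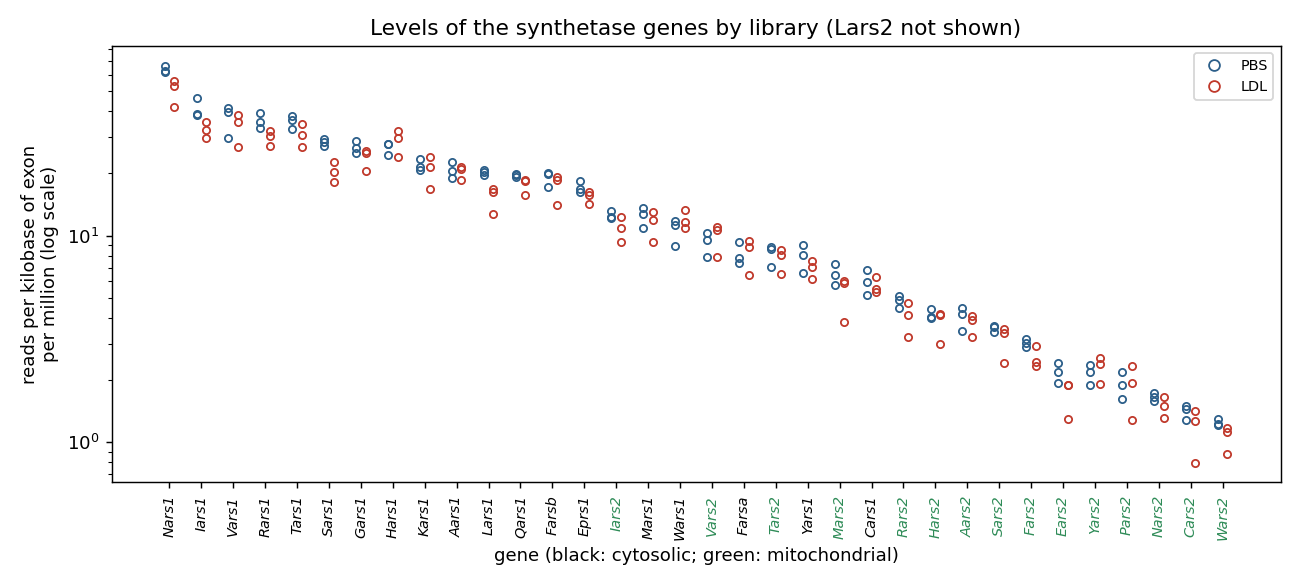
Level of each synthetase gene in each library, in RPKM on a log scale, ordered by the PBS mean, without Lars2, with PBS in blue and LDL in red and 3 points for each (the libraries of 3 mice). Gene names are black for cytosolic and green for mitochondrial members, and the order runs from Nars1 at 63.6 in PBS to Wars2 at 1.24, with cytosolic and mitochondrial genes mixed in the middle, where Iars2 (12.5) precedes Mars1 (12.4).

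To ask whether LDL changed the synthetase genes, LDL and PBS were compared within mice with limma on log2 normalized counts, with the mouse as a block and Benjamini-Hochberg adjustment over all 18459 genes. A member was called at an adjusted p under 0.05. Of the 19 cytosolic members, 4 were lower in LDL-treated organoids (21.1%) and 0 were higher, beside 7.45% of all genes lower and 8.27% higher. At an unadjusted p under 0.05, 5 were lower and 1 was higher, beside 15.7% and 14.4% of all genes. EdgeR's quasi-likelihood test and DESeq2, each with the block, also called 0 higher, beside 1734 and 1409 of all 18459 genes. They called 2 and 4 lower, beside 1356 and 1142 genes. The 4 members that fell were Sars1, Lars1, Nars1 and Iars1, for serine, leucine, asparagine and isoleucine. All were reduced by less than the 1.5-fold threshold that the study used, and with that threshold 0 members remained, beside 3.46% of all genes lower and 5.68% higher.

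Sars1 (ENSMUSG00000068739, GRCm39 chr3:108332181-108352701, minus strand) encodes the enzyme that makes seryl-tRNA, also the precursor of selenocysteyl-tRNA. It held 3825, 4230 and 3558 normalized counts in the LDL-treated organoids of mice 1, 2 and 3, and 5288, 5391 and 5189 in their PBS-treated organoids. Every LDL-treated library was below every PBS-treated library, and the 3 PBS values lay close together. The log2 fold change was -0.45 (SE 0.077, limma adjusted p = 0.00799), a fall of 27.0%, with -0.47, -0.35 and -0.54 in mice 1, 2 and 3.

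Lars1, which charges leucine tRNA and also acts as a leucine sensor for mTORC1, held 2204, 2583 and 2355 normalized counts with LDL and 3078, 3205 and 3047 with PBS. Nars1, which charges asparagine tRNA, held 6616, 7796 and 6986 with LDL and 8895, 9171 and 8539 with PBS. The groups of both genes did not overlap, and mouse 1 showed the largest fall. Lars1 changed by -0.39 (SE 0.075, limma adjusted p = 0.0129) and Nars1 by -0.32 (SE 0.081, limma adjusted p = 0.0370) on the log2 scale.

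Iars1 (ENSMUSG00000037851, chr13:49835576-49887745, plus strand) charges isoleucine tRNA within the multisynthetase complex. Its normalized counts were 5607, 5935 and 5113 with LDL and 7473, 6903 and 6237 with PBS. The groups did not overlap, although the lowest PBS library, of mouse 3, was only slightly above the highest LDL library, of mouse 2. The log2 fold change was -0.31 (SE 0.079, limma adjusted p = 0.0381). No other gene with a mean of at least 10 had exons overlapping those of Sars1, Lars1, Nars1 or Iars1.

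**Figure D2:**
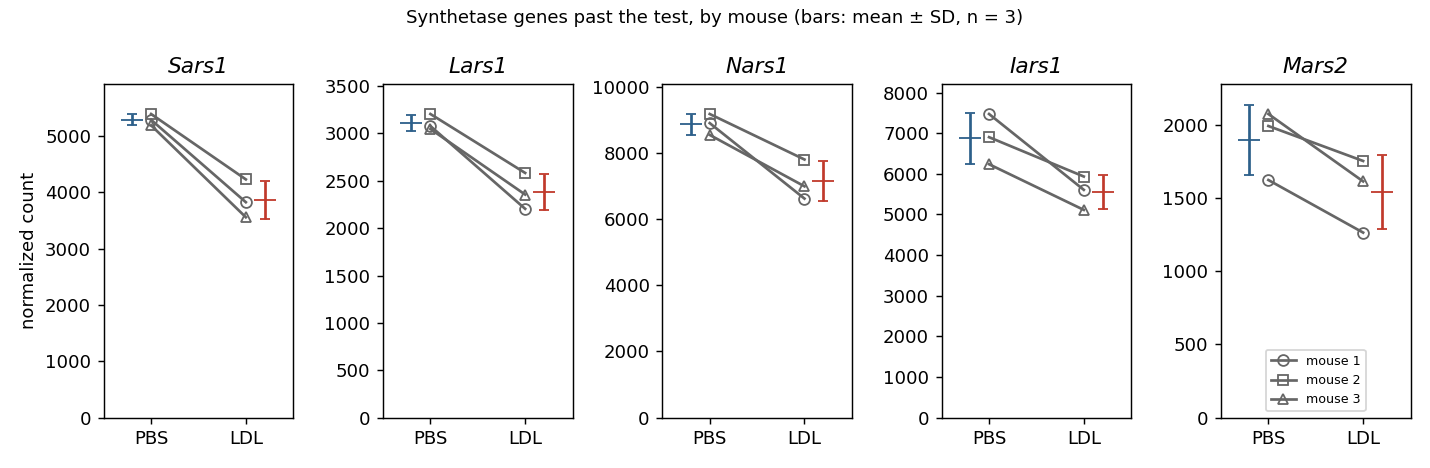
Normalized counts (linear axis from 0) of the 5 synthetase genes past the test in PBS- and LDL-treated organoids, with a line for each of the 3 mice and the mean ± SD (n = 3) beside the points. Each line falls from PBS to LDL, and the groups overlap only for Mars2, where the lowest PBS library (1624, mouse 1) lies below the highest LDL library (1754, mouse 2).

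The fifth cytosolic member by size of change was Rars1, for arginine, with 4666, 4877 and 4372 normalized counts with LDL and 5737, 5374 and 5257 with PBS. It was lower in all mice and its groups did not overlap, but at -0.23 on the log2 scale (SE 0.076, limma adjusted p = 0.0789) it did not pass. Wars1, for tryptophan, an interferon-inducible gene in many cell types, stood at the other end. It held 1953, 1852 and 1978 normalized counts with LDL and 1796, 1500 and 1743 with PBS, higher in all mice without overlap, and its log2 fold change of 0.20 (SE 0.077, limma adjusted p = 0.120) did not pass either. The remaining 13 cytosolic members lay between -0.19 (Tars1, for threonine) and 0.12 (Hars1, for histidine) and did not pass.

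In total, 8 of 19 cytosolic members were lower in all 3 mice (42.1%), 2 were higher in all 3 and 9 were mixed, beside 26.8% of all genes lower and 24.2% higher in all 3. The groups of 8 members did not overlap with LDL lower, and those of 1 with LDL higher, beside 12.3% and 11.9% of all genes. The median log2 fold change of the cytosolic members was -0.12, against -0.02 over all genes tested. By mouse it was -0.27, 0.00 and -0.15 in mice 1, 2 and 3. Summed over the 19 genes, the cytosolic members held 72769, 79815 and 72611 normalized counts with LDL and 86889, 82666 and 82825 with PBS.

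**Figure D3:**
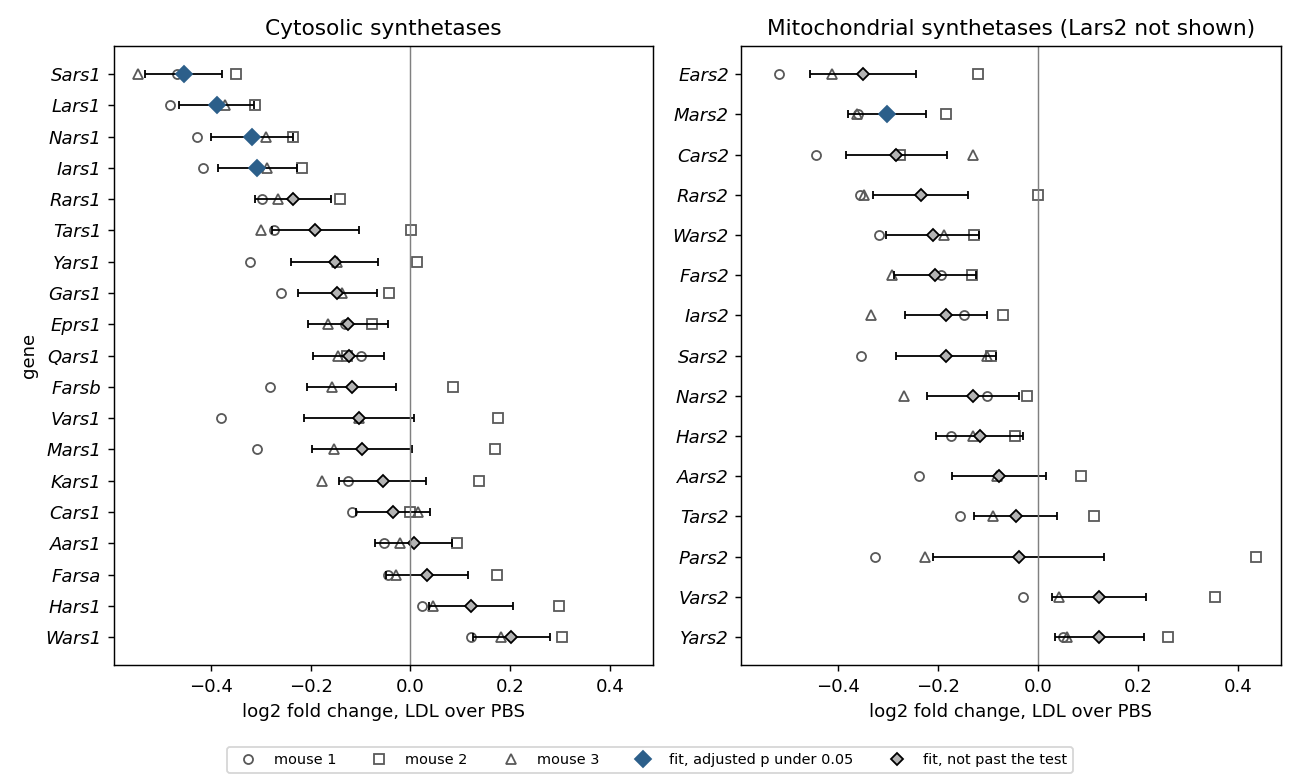
Log2 fold change (LDL over PBS) of each cytosolic (left) and mitochondrial (right) synthetase gene, with open symbols for mice 1, 2 and 3 and a diamond with its SE for the limma fit, blue where the adjusted p was under 0.05. Lars2, at 7.11, -6.74 and 0.89 in the 3 mice, is not shown. The 5 blue diamonds lie between -0.45 and -0.30, and the squares of mouse 2 lie farthest right for 17 of 19 cytosolic and 14 of the 15 mitochondrial members.

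The log2 fold changes differed between mice. Each mouse gave 1 library to each treatment, so a difference between mice and one between single libraries cannot be told apart. All genes of a mouse share these libraries. Over all genes tested, the median was -0.04, 0.00 and -0.02 in mice 1, 2 and 3. Mouse 2 had the highest log2 fold change of the 3 mice for 17 of 19 cytosolic members, and in this mouse 9 of 19 were below 0, against 17 in mouse 1 and 16 in mouse 3. Among the 15 mitochondrial members other than Lars2, mouse 2 was highest for 14, with 10 below 0 against 14 in mouse 1 and 13 in mouse 3. The PBS-treated library of mouse 2 is 1 of the 2 libraries with many Rn18s-rs5 reads, and the part of that library in the difference was not tested. Calls moved with the mice that entered the fit. Without mouse 2, 10 cytosolic members passed as lower, namely Sars1, Lars1, Nars1, Iars1, Rars1, Tars1, Yars1, Farsb, Mars1 and Vars1, beside 16.6% of all genes lower in that fit. Without mouse 1 the count was 1, beside 3.09% of all genes, and without mouse 3 it was 0, beside 0.417%. When both Rn18s-rs5-rich libraries were dropped, which left 2 libraries a group and no block, 0 members passed, beside 0.0596% of all genes lower, and the median of the cytosolic members was -0.12. In the fit of all libraries without the block, 0 of 35 members passed in either direction by limma, beside 0.412% of all genes lower and 0.932% higher. An unadjusted p under 0.05 was reached by 6 of 35 members, beside 3634 of all 18459 genes. The limma adjusted p of Sars1 was 0.0627 in this fit.

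Of the 7 cytosolic members in the multisynthetase complex (Eprs1, Iars1, Lars1, Mars1, Qars1, Rars1 and Kars1), 2 were lower, Lars1 and Iars1, and 5 were lower in all mice. All 7 had log2 fold changes below 0, from -0.39 to -0.06 with a median of -0.12, a direction that turned only for Mars1 without mouse 1 (0.01) and for Kars1 without mouse 3 (0.01) or without both Rn18s-rs5-rich libraries (0.02). Of the 12 members outside the complex, 2 were lower, Sars1 and Nars1, 8 were below 0 and the median was -0.11. By class, 2 of 9 cytosolic class I and 2 of 9 class II members were lower, with medians of -0.12 for each class. Eprs1, which carries glutamate and proline activities of both classes in 1 protein, held 9723, 9787 and 8877 normalized counts with LDL and 10652, 10328 and 9951 with PBS. It was lower in all mice, at -0.12 on the log2 scale (SE 0.080, limma adjusted p = 0.343), and did not pass.

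Of the 16 mitochondrial members, 1 was lower in LDL-treated organoids (6.25%) and 0 were higher, close to the 7.45% of all genes that were lower. At an unadjusted p under 0.05, 5 were lower and 0 higher, beside 15.7% and 14.4% of all genes. EdgeR called 1 lower and DESeq2 0, beside 1356 and 1142 of all 18459 genes. Both called 0 higher, beside 1734 and 1409 genes. Mars2 (ENSMUSG00000046994, chr1:55276336-55287629, plus strand), which charges methionine tRNA for the initiation and elongation of mitochondrial translation, held 1265, 1754 and 1615 normalized counts with LDL and 1624, 1993 and 2075 with PBS. The mice had different baselines, lowest in mouse 1, so that the groups overlapped while LDL was below PBS in each mouse. The log2 fold change was -0.30 (SE 0.078, limma adjusted p = 0.0373). Exons of Boll overlap those of Mars2 on the opposite strand over 3827 bases, and Boll had a mean of 62.8 normalized counts. The strand setting of the counting is not given in the sources used here.

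Ears2, for glutamate, held 390, 503 and 473 normalized counts with LDL and 559, 547 and 630 with PBS. The groups did not overlap, and the fall was smallest in mouse 2. At -0.35 (SE 0.106, limma adjusted p = 0.0630) Ears2 had the lowest log2 fold change among mitochondrial members but did not pass. Cars2, for cysteine, held 327, 458 and 486 normalized counts with LDL and 445, 555 and 532 with PBS, and changed by -0.28 (SE 0.101, limma adjusted p = 0.102). Without both Rn18s-rs5-rich libraries, Cars2 was at -0.04. Rars2, for arginine, held 1003, 1286 and 1065 with LDL and 1284, 1286 and 1356 with PBS. It was lower in mice 1 and 3 and equal in mouse 2 to within 1 normalized count, with a log2 fold change of -0.24 (SE 0.095, limma adjusted p = 0.143). Cars2 shares 4080 exonic bases with Naxd and Ears2 601 with Ubfd1, both on the opposite strand.

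The other 11 mitochondrial members apart from Lars2 lay between -0.21 (Wars2, for tryptophan) and 0.12 (Vars2 and Yars2, for valine and tyrosine), and none passed. Counted over all 16, 10 were lower in all mice (62.5%), Rars2 among them by less than 1 count in mouse 2, 1 was higher in all mice (Yars2) and 5 were mixed, beside 26.8% and 24.2% of all genes. The groups of 3 members did not overlap (Ears2, Sars2 and Wars2), all lower with LDL, beside 12.3% of all genes. The median log2 fold change was -0.16, and -0.18 without Lars2. By mouse the median of all 16 was -0.22, -0.06 and -0.16, and without both Rn18s-rs5-rich libraries it was -0.09. Of the mitochondrial class I members 1 of 9 was lower (median -0.21), and of the class II members 0 of 7 (median -0.12).

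The cytosolic and mitochondrial medians differed by 0.03 on the log2 scale (cytosolic minus mitochondrial), with -0.06, 0.06 and 0.01 in mice 1, 2 and 3 (SD 0.059), so it had no common sign. Without Lars2 it was 0.06, with -0.04, 0.05 and 0.03 in the mice (SD 0.045), also without a common sign. Without mouse 1 it was 0.08, and without the Rn18s-rs5-rich libraries -0.033. With 3 libraries against 3 and the pairing ignored, an exact permutation test of a single value between treatments cannot go below a two-sided p of 0.1. Paired by mouse, its floor is higher still, and no such test is given. The fold changes of cytosolic and mitochondrial genes for the same amino acid were also set side by side. Both were below 0 for 10 of 15 amino acids, leucine left out because of Lars2. Across the 15 amino acids they had a Pearson r of -0.03 and a Spearman rho of -0.13, a description over genes that share the same 6 libraries, with Eprs1 entering for both glutamate and proline and the mean of Farsa and Farsb for phenylalanine. Sars1 fell most among cytosolic members, and Sars2 changed by -0.18 (SE 0.10, limma adjusted p = 0.263). Wars1 lay at 0.20 and Wars2 at -0.21, and neither passed.

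Lars2 (ENSMUSG00000035202, chr9:123195952-123291731, plus strand), the mitochondrial leucine enzyme, had the largest SE of the 35 members. It held 139578, 793 and 1457 normalized counts in the LDL-treated organoids of mice 1, 2 and 3, and 1010, 85068 and 783 in their PBS-treated organoids. The LDL-treated library of mouse 1 was 155 times and the PBS-treated library of mouse 2 94.4 times the median of the other 4 libraries, in which Lars2 lay between 783 and 1457. The log2 fold changes were 7.11, -6.74 and 0.89 in mice 1, 2 and 3, and the fit gave 0.42 with an SE of 2.04 (limma adjusted p = 0.922). Without mouse 2, Lars2 passed as higher at 4.002 (limma adjusted p = 0.000198), beside 14.2% of all genes higher in that fit, and without mouse 1 the value was -2.92.

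The same libraries were high for ribosomal RNA genes. Rn18s-rs5 held 2226870, 21387 and 54768 normalized counts with LDL and 22955, 828864 and 26018 with PBS. Gm15564, a predicted gene, held 12318, 53.7 and 140 with LDL and 70.4, 24748 and 53.7 with PBS. Across the 6 libraries, log2 counts of Lars2 went with those of Rn18s-rs5 (Pearson r = 0.99), Gm15564 (0.99) and Mir6236 (0.95), a description in which 2 libraries set the values. The mitochondrial ribosomal RNAs were also highest in these 2 libraries (r = 0.80 for mt-Rnr2 and 0.79 for mt-Rnr1 with Lars2) but spread less, with the highest library 1.43 times the lowest for mt-Rnr2 and 2.06 times for mt-Rnr1. The median of the other 15 mitochondrial synthetases stayed between 621 and 682 in all libraries.

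The canonical Lars2 transcript of 3934 bases, with its coding sequence at positions 240 to 2948, was compared with these RNAs. It matched 3 of 18 Gm15564 transcripts over 72 to 75 bases at 98.6% to 98.7% identity, at positions 3315 to 3389 after the coding sequence, and had 0 matches to Rn18s-rs5, Mir6236, mt-Rnr1 or mt-Rnr2. The part of ribosomal RNA reads in the Lars2 counts was not tested, since the deposited table gives counts for whole genes. Lars2 accounted for 0.477% of the reads on genes in the LDL-treated library of mouse 1 and 0.310% in the PBS-treated library of mouse 2, against 0.00306% to 0.00598% in the others.

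**Figure D4:**
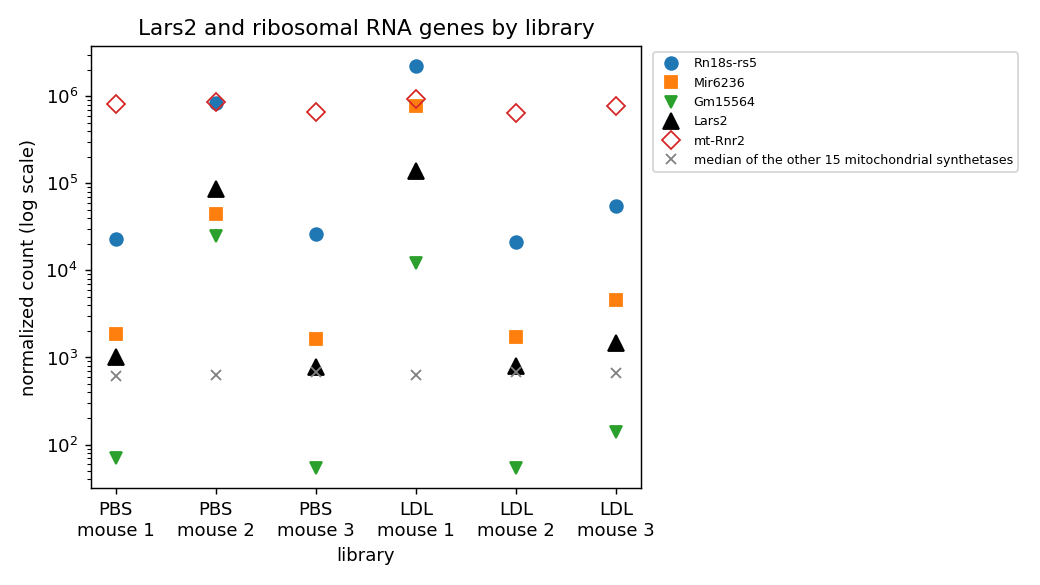
Normalized counts (log scale) in each of the 6 libraries of Lars2 (black triangles), Rn18s-rs5, Mir6236 and Gm15564, of the mitochondrial ribosomal RNA mt-Rnr2 (open diamonds), and the median of the 15 other mitochondrial synthetases (crosses). Lars2 rises with Rn18s-rs5, Mir6236 and Gm15564 in PBS mouse 2 (85068) and LDL mouse 1 (139578), while the crosses stay between 621 and 682.

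Genes that work with the synthetases were read from lists written from general knowledge. Of the 3 scaffold proteins of the multisynthetase complex, Aimp1 fell by 0.27 on the log2 scale (SE 0.073, limma adjusted p = 0.0446), from 1604, 1779 and 1684 normalized counts with PBS to 1327, 1460 and 1420 with LDL. This call was lost with DESeq2, no filter, quantile normalization, no block, without mouse 1, without mouse 3 and without both Rn18s-rs5-rich libraries. Aimp2 (-0.05) and Eef1e1 (0.09) did not pass. None of the 4 genes of mitochondrial transamidation and formylation passed (Gatb, Gatc, Qrsl1 and Mtfmt, which make mitochondrial glutaminyl-tRNA and formylmethionyl-tRNA), with values from -0.11 to 0.24, and 0 of 4 had an unadjusted p under 0.05. None of the 4 trans-editing and deacylation genes (Aarsd1, Dtd1, Dtd2 and Prorsd1, which clear mischarged tRNA) passed, with values from -0.27 to 0.36 and 0 of 4 at an unadjusted p under 0.05.

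The cytosolic elongation factors, which receive charged tRNA, had a lower median than the synthetases, at -0.48. Of the 5, 1 was lower past the test, beside 7.45% of all genes. This count was 4 with DESeq2, 3 with edgeR, 3 with no filter and 0 with no block. Eef1b2, a nucleotide exchange subunit for the tRNA carrier, held 7778, 12171 and 9595 normalized counts with LDL and 13636, 16255 and 15346 with PBS. All LDL values were below all PBS values, and the log2 fold change was -0.63 (SE 0.10, limma adjusted p = 0.00598). Eef1a1, the carrier itself, changed by -0.65 with a larger SE of 0.190 (limma adjusted p = 0.0552), Eef2 by -0.48 (limma adjusted p = 0.0573), Eef1g by -0.31 and Eef1d by -0.02, and these 4 did not pass in the limma fit with the block and the filter. Of 9 mitochondrial translation factors, 0 passed by limma and 1 had an unadjusted p under 0.05 (Mrrf, the ribosome recycling factor, at -0.28), and their median was -0.07.

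As many cytosolic synthetase genes are known ATF4 targets, 24 other ATF4 target genes were set beside them. This list was chosen with its fall in these libraries known, so its direction is no independent evidence. Of these, 18 were lower (75.0%) and 0 higher, with a median of -0.72, against 21.1% lower and a median of -0.12 for the cytosolic synthetases. The largest falls were in Aldh1l2 (-3.60), an enzyme of mitochondrial folate metabolism, Chac1 (-1.91), which degrades glutathione, Cth (-1.89), which makes cysteine, and Stc2 (-1.85), a secreted glycoprotein. Slc7a11, the cystine transporter, was at 0.89 (limma adjusted p = 0.0536) and did not pass. By mouse the median of the list was -0.92, -0.63 and -0.73, so mouse 2 was the least changed here as well. Atf4 itself held 4370, 5427 and 4840 normalized counts with LDL and 5703, 6693 and 6833 with PBS, without overlap, and changed by -0.39 (SE 0.079, limma adjusted p = 0.0144). In the fit without the block Atf4 did not pass (limma adjusted p = 0.130). Without mouse 3 the number of lower ATF4 targets was 8, without both Rn18s-rs5-rich libraries 4 and without the block 12, with 0 higher in each.

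**Figure D5:**
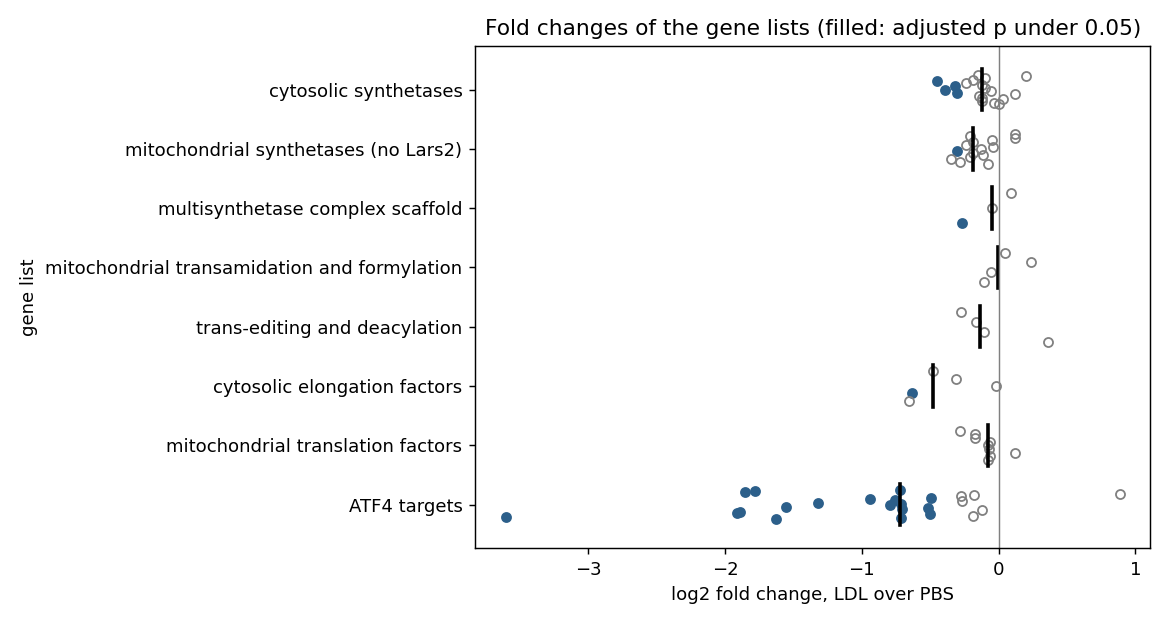
Log2 fold change (LDL over PBS) of every gene in the synthetase groups and the lists of working partners, 1 circle a gene, filled where the limma adjusted p was under 0.05, with a black bar at the median of each list. The cytosolic median (-0.12) and the mitochondrial median without Lars2 (-0.18) lie near 0, the elongation factors lie at -0.48 and the ATF4 targets at -0.72, with Aldh1l2 farthest left at -3.60.

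Start sites of the synthetase genes were searched for TGATGCAA, a composite element that ATF4 and C/EBP proteins are known to bind, on both strands (TTGCATCA on the other). The window of 300 bases ran from 250 bases before the annotated start site of the canonical transcript to 50 bases from it (GRCm39, GENCODE M39). The letters were present in 4 of 19 cytosolic windows (21.1%) and 0 of 16 mitochondrial windows, against 0.995% of 21611 windows of all protein-coding genes, 0.585% of the 12990 that were tested here, and 4 of the 24 ATF4 targets (16.7%). The matches of 3 of these 4 cytosolic members are shown with up to 11 bases on each side so that the sequence and its place can be read beside the fold changes, and capitals mark the matched letters, which in these 3 genes read as TGATGCAA on the strand opposite to the gene.
Cars1, chr7:143153782-143153811, minus strand, 27 to 34 bases after the start site: cggcgccgcggTTGCATCAgattctggaag
Iars1, chr13:49835602-49835625, plus strand, 37 to 44 bases after: cactgtcagtaTTGCATCAcctcc
Tars1, chr15:11399741-11399770, minus strand, 8 to 1 bases before: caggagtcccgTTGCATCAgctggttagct

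Of the 4 cytosolic members with these letters, Iars1 fell, as described above, and the other 3 did not pass. Tars1 changed by -0.19 (SE 0.088, limma adjusted p = 0.191) and Cars1 by -0.03 (SE 0.074, limma adjusted p = 0.799). Aars1, whose match is not shown, was at 0.007 (SE 0.077, limma adjusted p = 0.967). The windows of Sars1, Lars1 and Nars1 did not hold these letters. A match is a description of the sequence and not a measured site, and no match says only that these letters are absent from this window.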

How the data were processed

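RNA-Seq was performed by the authors on organoids of 3 mice, each treated with LDL or PBS. Per the labels and methods, ribosomal RNA was removed, stranded libraries were made, and reads were aligned to GRCm39 with STAR and counted per gene with featureCounts; bcl2fastq 2.20 and DESeq2 are also named in the submitters' processing notes, and the strand setting is not given in the sources used here. The authors deposited normalized counts as a signal: each value is the reads on a gene over 1 size factor per library, with no log step. Whole reads were recovered for 100% of values (tolerance 0.01). All 6 columns were matched to labelled samples.

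Identifiers were matched to GENCODE M39 (54749 found, 667 not). Normalized counts plus 1 were taken to log2 where the gene's mean reached 10, and LDL was compared with PBS by limma (eBayes with trend, two-sided, Benjamini-Hochberg over all genes tested), so fold changes are on the log2(count + 1) scale. The mouse was a block: the labels give both libraries of a replicate number 1 animal identifier, and, after the treatment means were removed, same-mouse libraries correlated across genes with r = 0.48, 0.42 and 0.46. The p-values rest on how the LDL to PBS difference varied over 3 mice. Differences in level between mice are taken out by the block. Each gene's variance was drawn toward a trend over all genes tested. RPKM values were computed from the recovered reads and include ribosomal RNA reads in the totals.

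The members and lists were chosen with earlier results of these data known. Every member past the test and the 5 of largest absolute change in each group were named with values in every sample, and of each other list the members past the test, at most 4. Wars1 and Eprs1, and list genes that did not pass, were added after their values were seen. Fits were run with limma 3.58.1, DESeq2 1.42.0 and edgeR 4.0.16 in R 4.3.3, after they had been tested on simulated data, and tables and plots were made with matplotlib 3.10.9, numpy 2.4.6, pandas 2.3.3 and Python 3.11.15. As alternatives, the pseudocount was 0.5 or 5, the filter was dropped or set to 50, and the results were recomputed with upper-quartile and quantile scaling, DESeq2 and edgeR on the recovered reads, no block, each mouse left out, a 1.5-fold threshold and the lists without Gars1 and Kars1. Leaving out Lars2, or the LDL library of mouse 1 with the PBS library of mouse 2, was added after seeing the data. Counting error alone limits a gene without a read to 3 reads. Some items are not reported here.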

Additional observations from a re-analysis of the deposited data

How the results depend on the processing

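In the fit with no replicate block, the counts of lower members fell from 4 to 0 (cytosolic) and from 1 to 0 (mitochondrial), and those of the scaffold proteins and elongation factors from 1 to 0. With every mouse in both treatments, the limma log2 fold changes are the same with and without the block, so no direction could change. EdgeR gave 2 lower cytosolic members, no filter 2 and quantile normalization 2. For mitochondrial members, DESeq2 and no filter gave 0 lower and upper-quartile scaling 2. The scaffold list had 0 lower with DESeq2, no filter and quantile normalization, and the elongation factors had 4 with DESeq2, 3 with edgeR and 3 with no filter. Of ATF4 targets, 1 was higher with edgeR, no filter and upper-quartile scaling. With over 1.5-fold, both synthetase groups and the scaffold had 0. Without the LDL library of mouse 1 and the PBS library of mouse 2, both synthetase groups, the scaffold and the elongation factors had 0 lower, ATF4 targets 4, and the difference of the medians was -0.033.

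With 1 mouse left out, lower counts ranged from 0 to 10 for cytosolic members, 0 to 4 for mitochondrial members, 0 to 1 for the scaffold, 0 to 4 for elongation factors, 0 to 1 for mitochondrial translation factors and 8 to 21 for ATF4 targets. Higher counts ranged from 0 to 1 for mitochondrial members (Lars2, without mouse 2) and for ATF4 targets. These fits had fewer samples, and which feature of a mouse moved the counts was not tested. Over all genes, the calls were 1375 lower and 1526 higher, 3062 and 2616 without mouse 2, 570 and 906 without mouse 1, 77 and 265 without mouse 3, and 76 and 172 with no block. DESeq2 gave 1142 and 1409, edgeR 1356 and 1734, quantile normalization 1433 and 1439 and upper-quartile scaling 1732 and 1470. With no filter the calls were 1218 and 1432 of 43039 genes.

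Signs turned mostly near 0. Aars1 was at -0.020 with upper-quartile scaling and -0.022 without both libraries, which also put Kars1 at 0.019 and Pars2 at 0.064. With 1 mouse left out, Aars1 ranged from -0.036 (without mouse 2) to 0.036, Farsa from -0.037 (without mouse 2) to 0.072, Kars1 from -0.152 to 0.0055 (without mouse 3), Cars1 from -0.060 to 0.0065, Mars1 from -0.231 to 0.0082, Vars1 from -0.242 to 0.036, Aars2 from -0.160 to 0.0023, Tars2 from -0.123 to 0.011 and Lars2 from -2.92 to 4.002, the turned values of these 6 without mouse 1. Pars2 ranged from -0.276 to 0.105, and was above 0 without mouse 1 and without mouse 3 (0.055). Over 13 other fits, Sars1 passed the test in 10 (-0.51 to -0.41, limma adjusted p from 3.03e-05 to 0.324), Lars1 in 9 (-0.43 to -0.31), Mars2 in 7 (-0.36 to -0.13), Nars1 in 6 (-0.36 to -0.24) and Iars1 in 6 (-0.35 to -0.25). All 5 kept their sign, but they were lower in each mouse. Fits with no block, another filter or 1 mouse left out could therefore not turn it. The medians were below 0 under every alternative run, from -0.22 to -0.07 (cytosolic) and -0.23 to -0.09 (mitochondrial). With no filter, the median of all genes was 0.10. The cause of the other moves was not tested.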
